A study of Mus musculus with 8 samples.

Results

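The IL-6 family is described here by 10 genes, chosen by name from the expression table. They are the cytokines Il6, Il11, Lif, Osm and Clcf1, the receptor chains Il6st, Osmr, Lifr and Il11ra1, and the feedback inhibitor Socs3. All 10 were found among the 47643 named entries of the table, and all 10 were among the 15327 genes with enough reads to be tested. Gene expression was measured by RNA-seq in primary mesenchymal stem cells (MSCs), which were flushed from tibiae and femurs of C57BL/6 mice and cultured. The comparison was between 2 libraries labelled wild type (WT), described by the study as Mettl3fl/fl mice, and 2 labelled Prx1-cre;Mettl3fl/fl (cKO), and it asked what changes when MSCs lose Mettl3, the catalytic subunit of the m6A RNA methyltransferase. All cells had spent 2 days in osteogenic medium with ascorbic acid, β-glycerophosphate and dexamethasone, a glucocorticoid. A separate MeRIP-Seq experiment, in which RNA fragments carrying N6-methyladenosine (m6A) are recovered by antibody, used wild type MSCs only and gave 1 list of 10160 peaks. Prx1-Cre is active in limb mesenchyme and its descendants, so that blood-derived cells in such a culture would keep the floxed allele intact. The number and age of the animals behind each library were not given in the sources used here.

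Cytokines of the IL-6 family signal through complexes that share gp130, the product of Il6st. Ligand binding activates Janus kinases, which phosphorylate STAT3, and STAT3 induces Socs3, whose product in turn blocks gp130 signalling. In bone, these cytokines are made by stromal cells, osteoblasts, osteocytes and macrophages. They act on osteoblasts directly and on osteoclast formation through stromal cells.

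The libraries held between 23978099 and 34106693 estimated counts. The targeted gene did not mark the genotype: Mettl3 stood at 17.6 and 16.9 CPM (TMM-scaled reads of the gene per 1000000 reads of the library) in the WT-labelled libraries and at 17.5 and 16.3 in the cKO-labelled ones. The groups overlapped (log2 fold change −0.03, standard error (SE) 0.0929, adjusted p = 0.824 in the quasi-likelihood test of edgeR, with p-values adjusted by the Benjamini-Hochberg procedure). The table gives 1 count for the whole gene, so it cannot show whether the floxed exons were lost, and every direction below rests on the labels. The WT-labelled pair differed far more than the cKO-labelled pair, with a biological coefficient of variation of 12.3% against 1.90%. Whether the libraries of a group came from separate animals or cultures is not stated, so p-values measure only the spread between these libraries, which may be technical.

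Of the 10 genes, 8 passed the test at an adjusted p of 0.05, 6 of them lower and 2 higher in the cKO-labelled libraries. Over all genes tested, 30.5% passed, 16.8% lower and 13.7% higher. The ligands Il6, Il11, Lif and Clcf1 fell between 4.41-fold and 10.6-fold, together with Socs3, which fell 3.02-fold, whereas the ligand Osm and the receptor chain Lifr rose. In all 10 genes the groups did not overlap, which was also the case for 68.9% of all genes tested. The median log2 fold change was −0.93 over the 10 genes and −0.0038 over all genes tested.

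**Figure D1:**
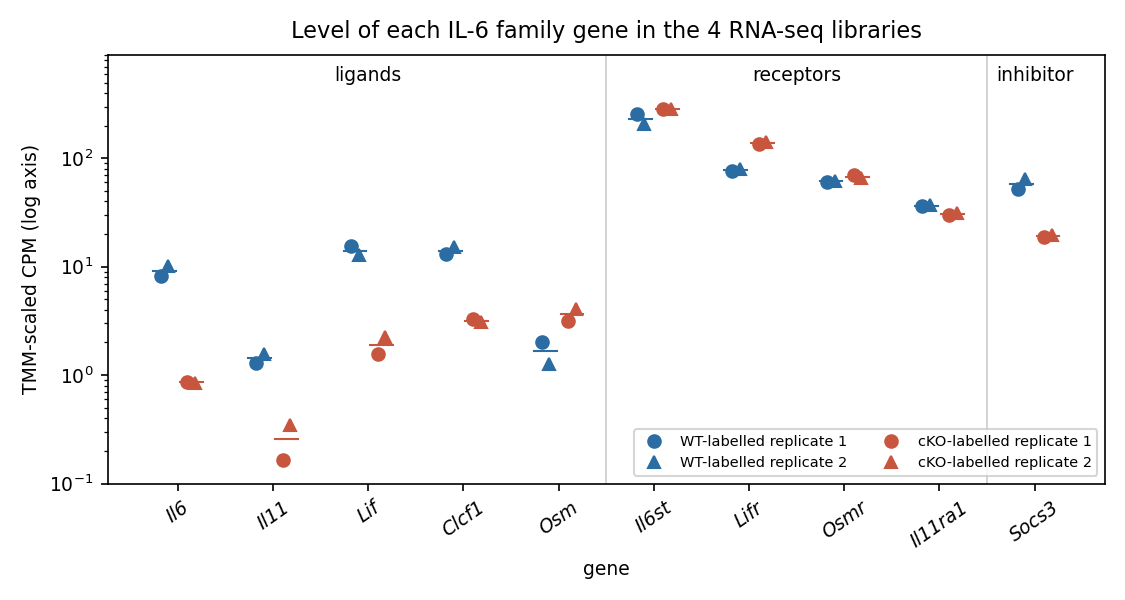
TMM-scaled CPM (log axis) of each of the 10 genes in the 4 RNA-seq libraries; each point is 1 library and each short line the mean of the 2 libraries of a group. Il6, Il11, Lif, Clcf1 and Socs3 lie lower in both cKO-labelled libraries, Osm and Lifr lie higher, and the groups lie close together in Il6st, Osmr and Il11ra1.

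Il6 encodes interleukin-6, the founding cytokine of the family, which signals through its own receptor chain and gp130. It was counted 278 and 285 times in the WT-labelled libraries and 21 and 27 times in the cKO-labelled ones, which is 8.22 and 10.1 CPM against 0.867 and 0.847 CPM. Both cKO-labelled libraries were low and nearly equal, and the groups were far apart. The fall was 10.6-fold (log2 fold change −3.41, SE 0.207, adjusted p = 0.000125 in the same edgeR test, which gave every adjusted p below unless another tool is named). Among all genes tested, 1.35% had a lower fold change than Il6.

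Lif encodes leukaemia inhibitory factor, which acts through Lifr and gp130 and is made by osteoblasts and stromal cells. WT-labelled libraries held 15.4 and 12.8 CPM and cKO-labelled ones 1.57 and 2.23 CPM, from 520 and 361 against 38 and 71 counts. No WT-labelled value came near a cKO-labelled value. Lif fell 7.30-fold (log2 fold change −2.87, SE 0.198, adjusted p = 0.000208).

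Clcf1 encodes cardiotrophin-like cytokine factor 1, which binds the receptor of ciliary neurotrophic factor. Its levels were 13.0 and 15.1 CPM in WT-labelled and 3.26 and 3.11 CPM in cKO-labelled libraries. The values within each group were close together and the groups well separated. Clcf1 fell 4.41-fold (log2 fold change −2.14, SE 0.141, adjusted p = 0.000171).

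Il11 encodes interleukin-11, which acts through Il11ra1 and gp130 and is known for its part in bone formation. It was the most sparsely counted ligand of those that fell, with 44 and 44 counts in the WT-labelled libraries (1.30 and 1.56 CPM) and 4 and 11 in the cKO-labelled ones (0.165 and 0.345 CPM). The groups did not overlap, but so few counts leave the size of the fall wide. It was 5.33-fold (log2 fold change −2.41, 95% confidence interval −3.46 to −1.37, adjusted p = 0.00871). Without cKO replicate 1 the log2 fold change was −2.03 and the adjusted p 0.0542, and without cKO replicate 2 they were −3.07 and 0.0210. With limma on log2(TPM + 1), a scale that compresses low genes, the fold change shrank to −0.76.

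Osm encodes oncostatin M, a ligand of Osmr that is known as a product of macrophages and other blood cells, and it moved the other way. It was counted 69 and 36 times in WT-labelled and 77 and 131 times in cKO-labelled libraries, or 2.04 and 1.27 CPM against 3.18 and 4.11 CPM. Both cKO-labelled values were above both WT-labelled values, with a wide spread in each group. Osm rose 2.19-fold (log2 fold change 1.13, SE 0.288, adjusted p = 0.0288). The adjusted p was 0.0502 without cKO replicate 1, 0.187 without cKO replicate 2 and 0.0780 with limma on log2(TPM + 0.1). Osm and Lif are neighbours on chromosome 11, on the same strand and 16530 bp apart, and 97.0% of tested genes had a lower fold change than Osm against 1.73% for Lif.

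The summed level of 12 macrophage markers was 20765 and 24982 CPM in the WT-labelled libraries and 27097 and 27269 CPM in the cKO-labelled ones, so it moved in the same direction as Osm. Without Lyz2, which supplied more of this sum than any other marker, it was 9781 and 9048 CPM against 11464 and 11555 CPM. All 12 were detected, 4 passed the test as higher and none as lower, beside 13.7% and 16.8% of all genes tested, and none was at 0. Those that passed were Ptprc, C1qa, C1qb and C1qc. Of the 8 that did not pass, Csf1r, Itgam, Cd68, Fcgr1 and Cd14 had log2 fold changes of −0.04 to 0.07. Adgre1, Lyz2 and Mrc1 had log2 fold changes of 0.14 to 0.58. The part of macrophage RNA in the result for Osm was not tested. In bulk RNA, fewer cells of a type and less RNA per cell cannot be told apart. The summed level of 9 neutrophil markers was between 9.09 and 10.6 CPM. Of these, S100a9, Mpo, Ltf and Ngp were at 0 in every library, Csf3r supplied 4.81 to 9.22 CPM, and S100a8 fell 5.40-fold (log2 fold change −2.43, adjusted p = 0.00475). The summed level of 6 T cell markers was at most 0.858 CPM.

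**Figure D2:**
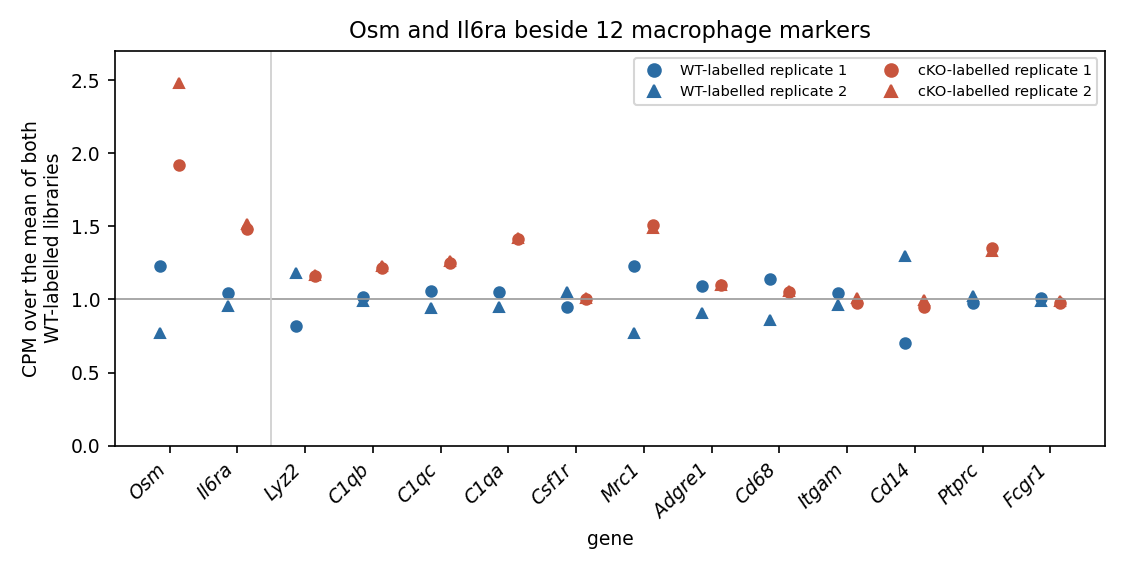
Level of Osm, of Il6ra and of 12 macrophage markers in each library, as CPM divided by the mean of both WT-labelled libraries (linear axis, the line at 1 is that mean). Osm and Il6ra lie higher in both cKO-labelled libraries, while 8 of the 12 markers did not pass the test.

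The start regions of these genes were read from RefSeq (GRCm38.p6), where 8 of the 10 genes had an entry and Osm and Clcf1 had none. The 250 bases before each start were searched on both strands for the AP-1 site TGANTCA, the cyclic AMP response half-site TGACG, the STAT site TTCNNNGAA, the NF-kappaB site and the C/EBP site TTNNGCAA. These letters occur in 6.75%, 17.8%, 7.02%, 3.9% and 9.56% of all 32851 promoters. Matches were found in Il6, Il11, Lif and Socs3, which fell, but not in Il11ra1, which also fell. The share of promoters with a match to any of these sites was not counted. The 30-base windows of the matches are shown with the matched letters in capitals because they hold the letters of the factors best known at these genes. They lie at chr5:30012864-30012893, chr5:30012972-30013001 and chr5:30013060-30013089 (Il6, plus strand), chr7:4778221-4778250 (Il11, minus strand), chr11:4257329-4257358 (Lif, plus strand) and chr11:117969501-117969530 (Socs3, minus strand).
Il6 AP-1 letters: cTGAGTCActtttaaagaaaaaaaagaaga
Il6 cyclic AMP and C/EBP letters: taaacgaCGTCAcaTTGTGCAAtcttaata
Il6 NF-kappaB letters: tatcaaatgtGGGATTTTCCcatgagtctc
Il11 AP-1 letters: aggagggagggTGAGTCAggatgtgtcagg
Lif AP-1 letters: ccagtcagctgTGACTCAggccatagtggc
Socs3 STAT letters: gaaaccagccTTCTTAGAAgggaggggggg

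The AP-1 letters began 249 bases before the start of Il6, 98 before the later listed start of Il11 and 228 before the start of Lif. In Il6, the half-site lay 135, the C/EBP letters 128 and the NF-kappaB letters 44 bases before the start, and in Socs3 the STAT letters lay 154 bases before it. The matches in Il11 and Socs3 lie inside the gene spans of the expression table, which begin further upstream than these starts. The other listed start of Il11 had no match. A match is a description of letters and not of a bound site. The searched letters were not in these windows of Il6st, Osmr, Lifr and Il11ra1, which says nothing about the factors.

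Among the receptor chains, Lifr rose, Il11ra1 fell slightly, and Il6st and Osmr did not pass the test. Lifr encodes the receptor chain for Lif. It stood at 75.6 and 80.6 CPM in WT-labelled and at 135 and 141 CPM in cKO-labelled libraries. The libraries of each group were nearly equal and the groups lay well apart. Lifr rose 1.77-fold (log2 fold change 0.82, SE 0.0638, adjusted p = 0.000322), and 94.8% of tested genes had a lower fold change.

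Il6st encodes gp130, the chain shared by the receptors of the family. Its levels were 255 and 207 CPM in WT-labelled and 287 and 286 CPM in cKO-labelled libraries. The cKO-labelled libraries were almost identical, and the WT-labelled ones differed from each other by more than the higher of them differed from the cKO-labelled pair. The log2 fold change of 0.31 (95% confidence interval 0.07 to 0.55) gave an adjusted p of 0.0609. The log2 fold change was 0.48 without WT replicate 1, 0.17 without WT replicate 2 and 0.31 without cKO replicate 1 or without cKO replicate 2. With the replicate number as a block the adjusted p was 0.0248, with DESeq2 0.0208 and without the filter on low counts 0.000238. It was 0.0598 with median-of-ratios size factors, 0.129 with limma on log2(TPM + 0.1) and 0.0907 with limma on log2(TPM + 1).

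Osmr encodes the chain that pairs with gp130 to bind oncostatin M. It stood at 61.0 and 61.7 CPM in WT-labelled and at 70.0 and 65.8 CPM in cKO-labelled libraries. The cKO-labelled values were slightly higher, with no overlap. The log2 fold change was 0.15 (95% confidence interval −0.01 to 0.30, adjusted p = 0.137). This change was 0.14 without WT replicate 1, 0.15 without WT replicate 2, 0.11 without cKO replicate 1 and 0.19 without cKO replicate 2. Osmr also did not pass with DESeq2 (adjusted p = 0.389) or with median-of-ratios size factors (adjusted p = 0.124). Osmr and Lifr also lie near each other, 254589 bp apart on chromosome 15.

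Il11ra1 encodes the receptor chain specific for interleukin-11. Its levels were 36.0 and 37.4 CPM in WT-labelled and 29.8 and 31.3 CPM in cKO-labelled libraries. The groups did not overlap, but lay closer together than for the other genes that passed. Il11ra1 fell 1.20-fold (log2 fold change −0.26, SE 0.0751, adjusted p = 0.0405), and the adjusted p was 0.393 without cKO replicate 1, 0.253 without cKO replicate 2 and 0.164 with DESeq2. The span of Il11ra1 in the table overlaps 6 other genes, of which Galt lies on the same strand and Dctn3, on the opposite strand, held up to 1812 counts in a library. The strand setting of the counting is not given in the sources used here, and the near-identical copy Il11ra2 was counted at most 1 time in a library, so the Il11ra1 count is uncertain.

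Socs3 encodes suppressor of cytokine signalling 3, which binds gp130 and inhibits the Janus kinases. It was counted 1764 and 1806 times in WT-labelled libraries (52.2 and 63.9 CPM) and 455 and 623 times in cKO-labelled ones (18.8 and 19.5 CPM). The cKO-labelled values were nearly equal and far below the WT-labelled values. The fall was 3.02-fold (log2 fold change −1.60, SE 0.113, adjusted p = 0.000226). Il6, Lif, Clcf1, Socs3 and Lifr had an adjusted p under 0.05 in each of the 12 alternative analyses, although Lifr misses the 2-fold change that the study's criterion adds, and none of the 10 genes changed direction in any of them.

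Levels can be compared between genes only per length, here in TPM, the share of a gene's transcripts scaled to a total of 1000000 in each library. In the WT-labelled libraries (mean ± SD, n = 2), Il6st led with 48.9 ± 7.77 TPM, followed by Il11ra1 at 40.9 ± 2.86 TPM, Socs3 at 32.6 ± 4.12 TPM, Lifr at 19.6 ± 0.0990 TPM and Osmr at 17.8 ± 0.460 TPM. The ligands came after them, Il6 at 14.7 ± 1.85 TPM, Clcf1 at 9.11 ± 1.15 TPM, Lif at 5.87 ± 1.74 TPM, Il11 at 1.14 ± 0.0495 TPM and Osm at 1.07 ± 0.361 TPM. Il11 and Osm could not be told apart, and Il6st and Il11ra1 differed by less than the SD of Il6st plus that of Il11ra1.

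In the cKO-labelled libraries the receptor chains stood at 65.5 ± 0.969 TPM for Il6st, 39.1 ± 1.07 TPM for Lifr, 33.5 ± 2.39 TPM for Il11ra1 and 20.9 ± 1.99 TPM for Osmr. Socs3 stood at 11.9 ± 0.148 TPM. Osm, the lowest gene in the WT-labelled order, was the highest ligand at 2.58 ± 0.559 TPM, not separable from Clcf1 at 2.42 ± 0.00707 TPM. Il6 was at 1.28 ± 0.0778 TPM, Lif at 0.740 ± 0.184 TPM and Il11 at 0.265 ± 0.0212 TPM.

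The deposited m6A peak list of wild type MSCs held 8 peaks whose summit lay in an exon of these genes. Of the 10 genes, 7 carried a peak, while Il6, Il11 and Il11ra1 carried none. Among the 14118 tested genes with an mm9 model, 39.1% had a peak. The list holds no replicates and no values for cKO cells, and the depth behind it is unknown, so a gene without a peak was not detected as methylated rather than shown to lack m6A. Further peaks within the span of Il11ra1 had their summits in exons of other genes, among them Rpp25l. Il11ra2, the near-identical copy of Il11ra1, had a peak, with a fold enrichment of 8.21 and a pileup of 13 fragments. Whether the fragments of that peak came from Il11ra1 was not tested.

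All 8 summits lay in the last exon of their gene, 5 in coding sequence and 3 in the 3′UTR. The share of all peaks placed in this way was not counted. The study reports most m6A sites of MSCs in coding sequence and 3′UTR, mainly near stop codons, so this placement does not set these peaks apart. All 8 peaks held GGAC, the core of the motif that the methyltransferase prefers, with 36 copies on the transcript strand in total. Copies per 100 bases ranged from 0.258 in the Osmr peak to 1.89 in the Lif peak at the stop codon. How often stretches of such length hold GGAC outside peaks was not counted, so its presence does not set these peaks apart. For 7 of the 8 peaks, the GGAC nearest the summit is shown with 13 bases on each side. The windows lie on mm9 at chr11:4169348-4169377 and chr11:4171733-4171762 (Lif, plus strand), chr11:4139798-4139827 (Osm, plus), chr19:4222368-4222397 (Clcf1, plus), chr15:6765636-6765665 (Osmr, minus), chr15:7141267-7141296 (Lifr, plus) and chr11:117829134-117829163 (Socs3, minus). GGAC is in capitals.
Lif at the stop codon: ttgaatgtaccatGGACtgagggacctcag
Lif in the 3′UTR: ttcacatttgtatGGACttggactctctgg
Osm: tcttcagggaatgGGACgatggctccacac
Clcf1: cagcctctgccagGGACtgagccagcctgg
Osmr: agcacaccaacttGGACtattggctccacc
Lifr: tgttgatagccagGGACcttcactctgggc
Socs3: atgccgcctccagGGACcccctccttttct

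Lif was the only one of the 10 genes with more than 1 peak. Its peak at the stop codon (chr11:4169225-4169436) had its summit 14 nt after the stop, a fold enrichment over the local background of 5.79 and a pileup of 22 fragments. The other (chr11:4171550-4171899) had its summit 2405 nt after the stop, an enrichment of 5.38 and a pileup of 18 fragments. Both enrichments were above the median of 4.03 over all peaks, and both pileups below the median of 60 fragments.

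The other peaked ligands had the summit of their peak in coding sequence, although the Osm peak ran to 135 nt after the stop. In Osm (chr11:4139478-4140145) the summit lay 140 nt before the stop, with an enrichment of 4.20 and a pileup of 37 fragments. In Clcf1 (chr19:4222090-4222456) it lay 186 nt before the stop, with an enrichment of 5.15 and a pileup of 24 fragments. Clcf1 held a lone GGAC in its peak, the fewest of the 8. Peaks were thus found on ligands that fell (Lif, Clcf1) and on the ligand that rose (Osm), whereas Il6 and Il11, which fell, had none.

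Among the receptor chains, Il6st had the longest peak of the 10 genes, 1517 bp (chr13:113294310-113295826), with its summit 104 nt before the stop, an enrichment of 4.11 and a pileup of 137 fragments. The Lifr peak (chr15:7140613-7141506) had its summit 123 nt after the stop, with an enrichment of 4.65 and a pileup of 86 fragments. In Osmr (chr15:6765198-6765972) the summit lay 312 nt before the stop, with an enrichment of 3.30 and a pileup of 35 fragments. The chain that rose and the chains that did not pass all had a peak near the stop codon.

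The Socs3 peak (chr11:117828409-117829329) spanned 921 bp and held 9 copies of GGAC, the most of the 8 peaks. Per 100 bases it held 0.977 copies, fewer than the shorter Lif peaks with 1.89 and 1.43. Its summit lay 227 nt before the stop. Its enrichment of 2.59 was the lowest of the 8, and 13.8% of all peaks had a lower one, while its pileup of 97 fragments was above the median of all peaks. At a −log10 q of at least 10, the peaks of Osm, Il6st, Lifr and Socs3 remained, 4 of the 8.

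**Figure D3:**
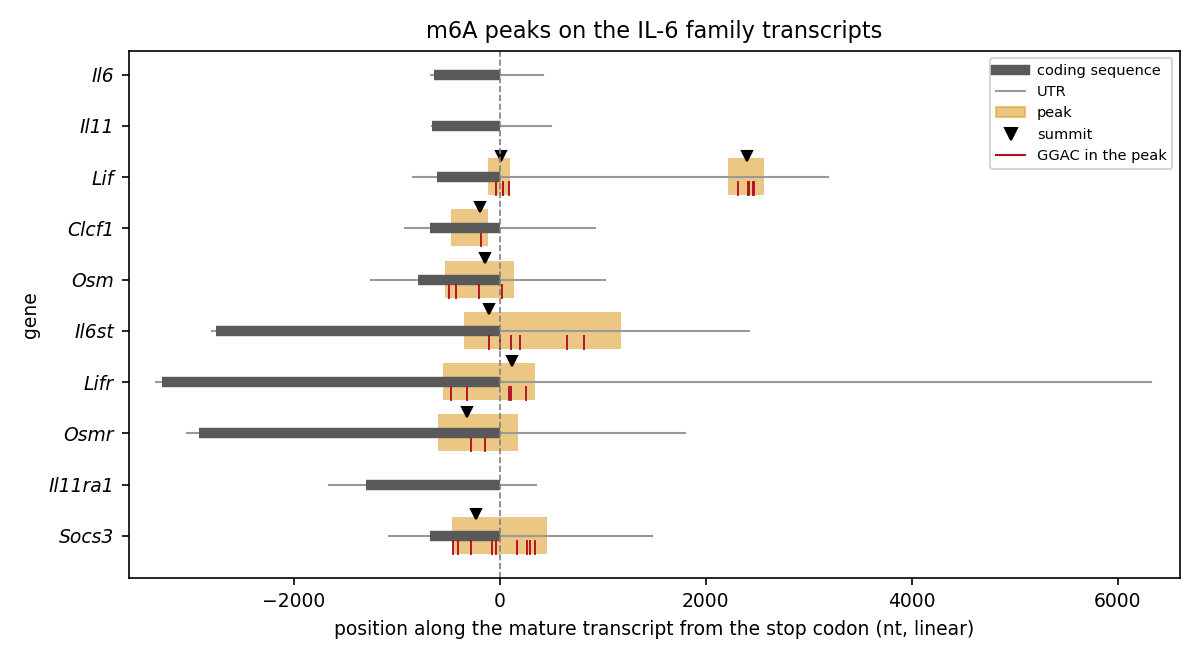
m6A peaks on the 10 transcripts of the mm9 annotation, aligned at the stop codon, with distance in nt on a linear axis. Thick bars are coding sequence, thin lines UTRs, shaded boxes peaks (the Osmr peak runs past its exon and is drawn at its genomic length), triangles summits and short ticks GGAC; 7 of the 8 summits lie between 312 nt before and 123 nt after the stop, and the remaining Lif summit 2405 nt after it.

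Of the other genes of the pathway, 52 were listed by role, 45 were tested, 8 were higher and 18 lower, and the median log2 fold change was 0.04. Of all genes tested, 13.7% were higher and 16.8% lower. Among the other ligands, Ctf1, which encodes cardiotrophin-1, went from 1.83 and 2.48 CPM in WT-labelled libraries to 0.825 and 0.816 CPM in cKO-labelled ones, a fall of 2.61-fold (adjusted p = 0.0161). The groups did not overlap. Ebi3, the shared subunit of interleukins 27 and 35, did not pass (log2 fold change −0.0032, adjusted p = 0.989). Cntf did not pass, and Il27, Ctf2 and Il31 were too low to be tested.

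Il6ra encodes the chain that binds interleukin-6 and is known for its expression in hepatocytes and leukocytes. It stood at 97.6 and 89.0 CPM in WT-labelled and at 138 and 141 CPM in cKO-labelled libraries and rose 1.50-fold (adjusted p = 0.00171), opposite to its ligand. As for Osm, the summed macrophage markers were higher in the cKO-labelled libraries, and their part in this was not tested. Cntfr, the receptor chain for ciliary neurotrophic factor and Clcf1, went from 2.48 and 1.88 CPM to 1.11 and 0.941 CPM, a fall of 2.14-fold (adjusted p = 0.0313). Il27ra, Il31ra and Il11ra2 were too low to be tested.

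Of 10 signal transducers, none was higher and 3 were lower, by small amounts, while 30.5% of all genes tested passed in either direction. Stat3, the main transcription factor of the pathway, stood at 271 and 286 CPM in WT-labelled and 241 and 239 CPM in cKO-labelled libraries (log2 fold change −0.21, adjusted p = 0.0384). Jak1, the kinase most used by gp130, did not pass (log2 fold change 0.04, 95% confidence interval −0.12 to 0.20). The sheddases Adam10 and Adam17, which release soluble interleukin-6 receptor, did not pass either, with log2 fold changes of 0.02 and 0.13.

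Negative regulators moved in both directions, 6 of 12 higher and 3 lower, beside 13.7% and 16.8% of all genes tested. Those that fell at least 2-fold were Socs1, an inhibitor of Janus kinases (log2 fold change −1.32, adjusted p = 0.0124), Socs2, known as a regulator of growth hormone signalling (−1.20, adjusted p = 0.000317), and Ptpn2, a phosphatase that acts on Janus kinases and STATs (−1.07, adjusted p = 0.000319). Socs2, for example, went from 30.7 and 29.5 CPM to 13.8 and 12.5 CPM, with no overlap. The genes that rose, Cish, Socs4, Socs5, Socs6, Socs7 and Pias1, had log2 fold changes of 0.30 to 0.65. Of the most highly expressed phosphatases of the list, Ptpn1 had a log2 fold change of −0.06 (adjusted p = 0.617) and Ptpn6 one of 0.22 (adjusted p = 0.0571).

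Of 16 genes listed as STAT3 targets, 15 were tested, 9 were lower and 1 was higher, and their median log2 fold change was −0.54. The shares over all genes tested were 16.8% lower and 13.7% higher, and the median log2 fold change was −0.0038. Lcn2, which encodes the iron-carrier protein lipocalin-2, went from 40.2 and 39.4 CPM to 1.77 and 1.91 CPM, a fall of 21.5-fold (adjusted p = 4.08e-06). Junb, an AP-1 subunit, went from 373 and 427 CPM to 81.8 and 81.5 CPM, a fall of 4.90-fold. Timp1, an inhibitor of metalloproteinases, and Vegfa, the angiogenic growth factor, fell 4.66-fold and 4.37-fold. In each of these genes the WT-labelled libraries lay far above the cKO-labelled ones.

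Mcl1, an anti-apoptotic gene, rose by contrast, from 826 and 831 CPM to 1010 and 1053 CPM (log2 fold change 0.32, adjusted p = 0.00857). Bcl3, Myc, Pim1, Icam1 and Cebpd fell by 0.31 to 0.99 on the log2 scale. Cebpb, Bcl6, Ccnd1, Lbp and Il4ra did not pass, and Fgg was at 0 in every library. Many of these genes are also known to respond to other factors.

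**Figure D4:**
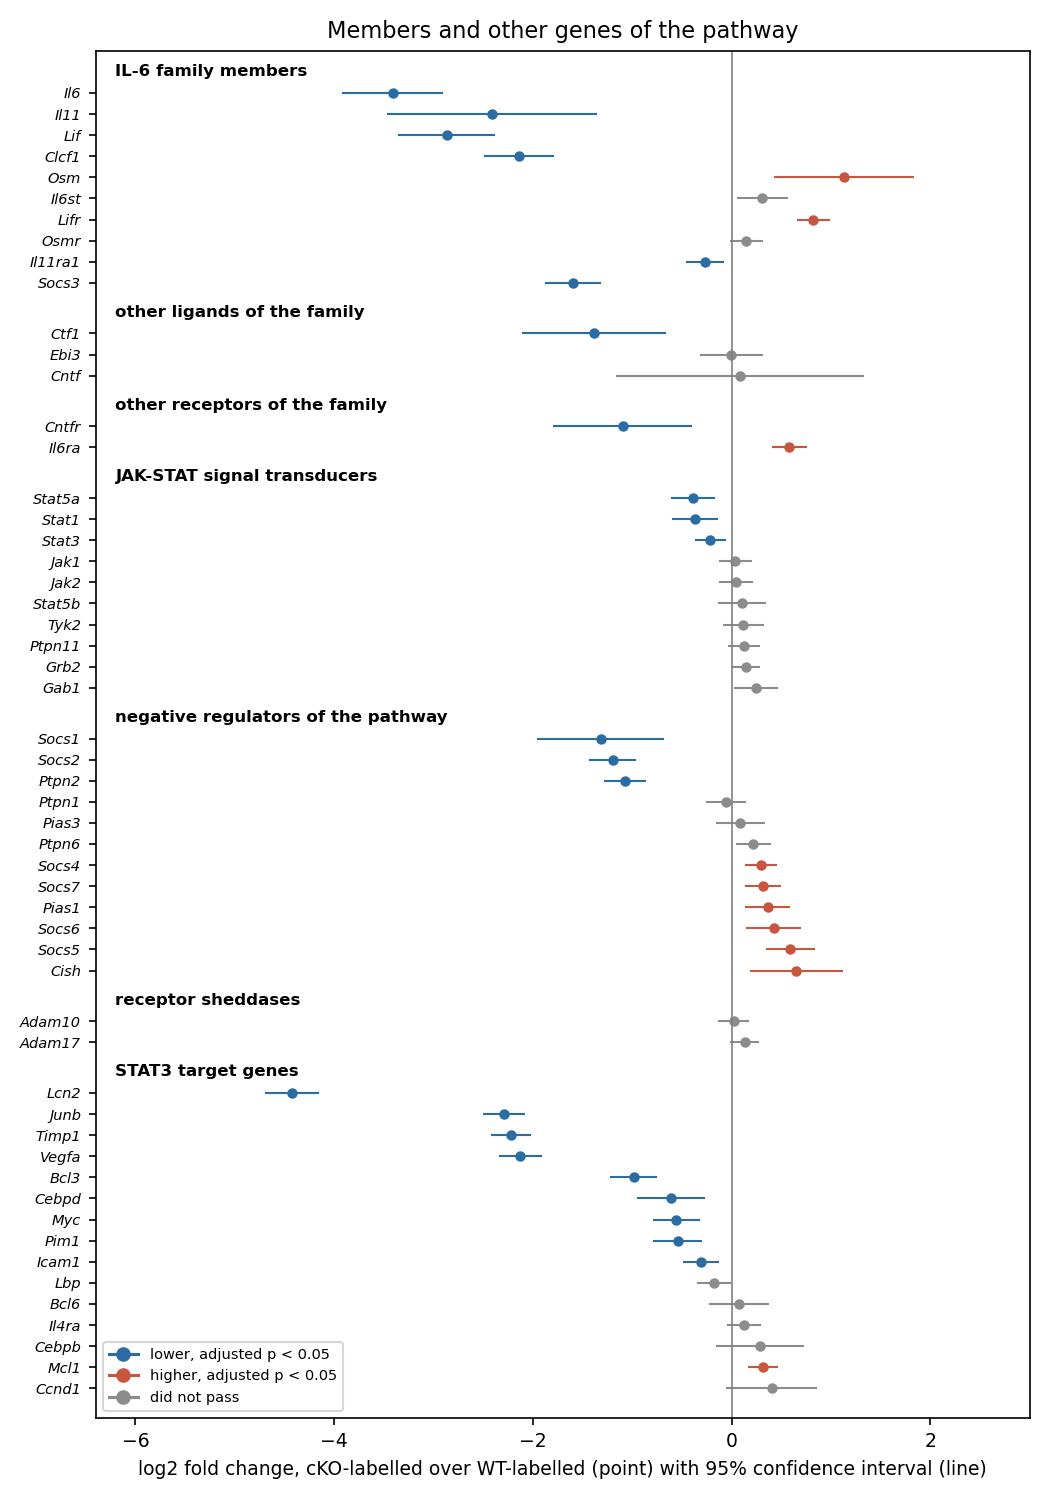
log2 fold change (cKO-labelled over WT-labelled) with its 95% confidence interval for the 10 genes and the tested genes of the other lists that are reported here, ordered within each list and coloured by direction where the adjusted p was under 0.05. Among the members the ligands other than Osm lie far left of 0, and among the STAT3 targets 9 of 15 lie left and passed, with Lcn2 farthest left.

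Stromal markers were checked beside these results, since Prx1-Cre acts in stromal cells. All 12 were detected, and their summed level was 3063 and 2956 CPM in WT-labelled and 2406 and 2436 CPM in cKO-labelled libraries. This fall rested on Col1a1, and the other 11 markers summed to 1167 and 1035 CPM against 1182 and 1178 CPM. Of the 12, 6 passed as lower and 4 as higher, beside 16.8% and 13.7% of all genes tested. Lepr, a marker of marrow stromal cells, was near 0, at 0.596 to 1.24 CPM. Thy1 stood at 3.93 and 1.91 CPM in WT-labelled and at 74.7 and 69.4 CPM in cKO-labelled libraries. Nt5e went the other way, from 12.3 and 12.3 CPM to 2.85 and 2.04 CPM, a fall of 5.09-fold (adjusted p = 0.000295). The summed level of 5 endothelial markers was 3.64 and 3.22 CPM in WT-labelled and 17.1 and 14.5 CPM in cKO-labelled libraries. Kdr and Emcn carried this rise, and the other 3 markers summed to 0.887 and 0.708 CPM against 0.949 and 0.628 CPM. Of these, Pecam1 and Cdh5 were lower in both cKO-labelled libraries. Tek was higher in both, at 0.207 and 0.0708 CPM in WT-labelled and 0.619 and 0.282 CPM in cKO-labelled libraries. Pecam1 and Tek were too low to be tested and Cdh5 did not pass. Of 5 adipocyte markers, Adipoq and Plin1 rose 1.57-fold and 1.58-fold (adjusted p = 0.00186 and 0.0277), while Cidec and Retn fell 5.80-fold and 5.26-fold (adjusted p = 0.000231 and 0.0182). Their summed level was between 51.4 and 61.5 CPM. Single markers of these lists were picked for naming with their values in view. The part of these differences in the results for Il6, Il11, Lif, Clcf1 and Socs3 was not tested.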

How the data were processed

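RNA-seq was performed on 2 WT-labelled and 2 cKO-labelled MSC libraries, and MeRIP-Seq on 2 immunoprecipitates and 2 inputs of wild type MSCs. For RNA-seq, the authors mapped reads with HISAT2 2.0.4 and used Ballgown. Unnormalized estimated counts of each gene were deposited by the authors, on mm10 positions. The counter and its strand setting were not given in the sources used here. The authors also deposited values headed FPKM, which sum to 1000000 in each library and are therefore TPM. The submitters' processing notes also list TopHat, MACS2, mm10 and mm9, and the peak positions are those of mm9. Whether MeRIP-Seq samples were pooled was not given. For each peak the deposited list gives the fold enrichment (a ratio), the pileup signal at the summit and the peak caller's p and q as −log10.

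Estimated counts were rounded. Entries without a gene name, 89 in all, held 0.110% to 0.125% of the counts and were left out. After filterByExpr and TMM scaling, the 15327 genes kept were tested in edgeR 4.0.16 under R 4.3.3 (glmQLFit, glmQLFTest, two-sided), and p-values were adjusted over all of them by the Benjamini-Hochberg procedure. The fit was tested on simulated data. Library totals ranged from 23978099 to 34106693 counts. Peaks were placed by their summit on GENCODE vM1 models of mm9, and GGAC was counted on the transcript strand. Each gene was represented by 1 transcript with a coding sequence. No test was run on peaks.

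The members and lists were chosen with earlier results of these data known. Named beside them were Mettl3 and, of each of 6 further pathway lists, the 2 genes with the highest mean and each gene with a change of 2-fold or more and an adjusted p under 0.05. Other genes of the lists are named only to give the counts in full. Some genes that this rule names, and some sequences, are not reported here. The alternatives were DESeq2 1.42.0, size factors by median of ratios, a replicate block, dropping the filter on low counts, limma 3.58.1 on log2(TPM + 0.1) and on log2(TPM + 1), the study's criterion (unadjusted p of 0.05 and a 2-fold change), and leaving out each library. For peaks they were any exon overlap, a stricter q and another motif. A fit with both cKO-labelled libraries summed was added after seeing the data, as were sums of marker levels without the genes that carry them. Labels give the groups; replicate numbers were taken from the sample titles.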

Additional observations from a re-analysis of the deposited data

How the results depend on the processing

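Of the 10 IL-6 family genes, 8 passed the test as reported. With 1 library left out in turn, 5 to 10 passed, the fewest without cKO replicate 1. The genes passing over the whole table, 4677 as reported, ranged from 1867 to 8750 with 1 library left out. The 26 other pathway genes that passed ranged from 10 to 38. With limma on log2(TPM + 0.1), 2060 genes and 11 pathway genes passed, with limma on log2(TPM + 1) 2858 and 17, by the study's criterion 1611 and 9, and with both cKO-labelled libraries summed, an alternative chosen after seeing the data, 2012 and 11. For peaks, 4 of 8 remained at a −log10 q of at least 10.

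With the replicate block, 9 of the 10 genes, 26 pathway genes and 4881 genes in all passed, and Il6st was the gene added (log2 fold change 0.32). Same-numbered libraries hardly deviated together (correlation 0.0276 across genes). The cKO-labelled pair differed so little (biological coefficient of variation 1.90%) that this cannot show whether the numbers pair the libraries. No member changed direction in any alternative run. The size of the fall of Il11 rests on few counts, and the depth of MeRIP-Seq is unknown.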
